A study of Homo sapiens with 12 samples.

Results

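OCI-LY1 cells that had become resistant to venetoclax were compared with the parental line under vehicle, in 6 of the series' 12 RNA libraries. OCI-LY1 is an established human line of diffuse large B-cell lymphoma. The parental group held 3 libraries of parental cells given DMSO for 3 days, and the resistant group held 3 libraries of the OCI-LY1R line given DMSO for 3 days. Neither group received decitabine, the agent of the other 6 libraries (1 µM for 3 days). The resistant line was raised from the parental one by escalating venetoclax to 1 µM; whether it is 1 clone, and whether venetoclax was still present during the DMSO treatment, is not given in the sources used here. Each line was deposited in its own table, so cell line and table cannot be told apart. Nothing says that the libraries of a group came from separate cultures, so a p-value here weighs a difference against library-to-library spread that may be technical. The parental libraries are called 1, 2 and 3. The resistant columns name a group only, and these libraries are called a, b and c.

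Venetoclax is a BH3 mimetic: it fills the groove in which the anti-apoptotic protein BCL2 holds its pro-apoptotic partners and so frees them to permeabilise mitochondria. MCL1, BCL-XL (the product of BCL2L1) and BCL2A1 hold the same partners without being blocked by the drug. Raised levels of these proteins, altered BCL2 and loss of BAX function are known routes to venetoclax resistance in lymphoid cells.

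Values are TPM, length-corrected transcript shares, which sum to the same total in every library and carry no depth, so the depth behind each value is unknown. In the 6 vehicle libraries, features annotated as antisense held 43.1% to 49.1% of all TPM and protein-coding genes 27.0% to 31.4%. ACTB was at 8.14 to 20.4 TPM and CD79A, a subunit of the B-cell receptor, at 3.39 to 8.72 TPM. The parental decitabine library 3, which is not in this comparison, had 90.1% of its TPM on coding genes and 1491 TPM of CD79A. Because of this, a gene on the opposite strand is named beside a called feature or BCL2 family gene below if it covers 10% or more of that feature's exons; where none is named, the annotation has none or a smaller overlap. Which strand the reads of a feature came from was not tested. The median absolute log2 difference between 2 libraries over all tested features was 0.31 to 0.35 within the parental group, 0.38 to 0.45 within the resistant group and 0.52 to 0.58 between the groups. Of 8 markers of germinal-centre B cells, 7 passed the filter on low values. MS4A1 was listed at 0 in all but resistant b. All 6 myeloid markers were at 0 in every library, as were SDC1 and PRDM1 of plasma cells, CD3D, CD3E, CD2 and CD8A of T cells, and HBB and HBA1 of erythroid cells. The 7 T cell markers summed to 0 to 0.687 TPM in parental and 0 to 2.01 TPM in resistant libraries, the 6 NK cell markers to 1.52 to 4.99 and 0 to 3.95 TPM, and the 6 epithelial or fibroblast markers to 0 to 0.561 and 0 to 2.98 TPM. The plasma cell marker JCHAIN was at 1100.1 TPM in parental 2 and 2767 TPM in resistant b and at 0 in the other 4.

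The comparison asked which features differ between resistant and parental cells before any decitabine. Of 7761 features that averaged 1 TPM or more across the 6 libraries, 134 were higher and 83 lower in resistant cells (limma on log2(TPM + 1), Benjamini-Hochberg adjusted p under 0.05; such features are called below). The 217 calls are 2.80% of the tested features, 1.73% higher and 1.07% lower. The 3 values of one group lay clear of the 3 of the other in each of the 217, and in 28.1% of all tested features. A change of at least 2-fold on this scale was seen in 85 of the higher and 71 of the lower calls. The median log2 difference of all tested features, resistant minus parental, was 0.11. With the libraries scaled to equal quantiles this median was 0.01 and the calls split into 86 higher and 100 lower; with median-ratio scaling it was -0.03 and the split was 85 and 97. Rises thus outnumbered falls on the TPM scale and not under these 2 scalings, while each called feature named below kept its direction under every scaling. Of the 217 calls, 33 held in every fit that left out 1 of the 6 libraries, and 184 lost the call in at least 1 of these fits.

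**Figure D1:**
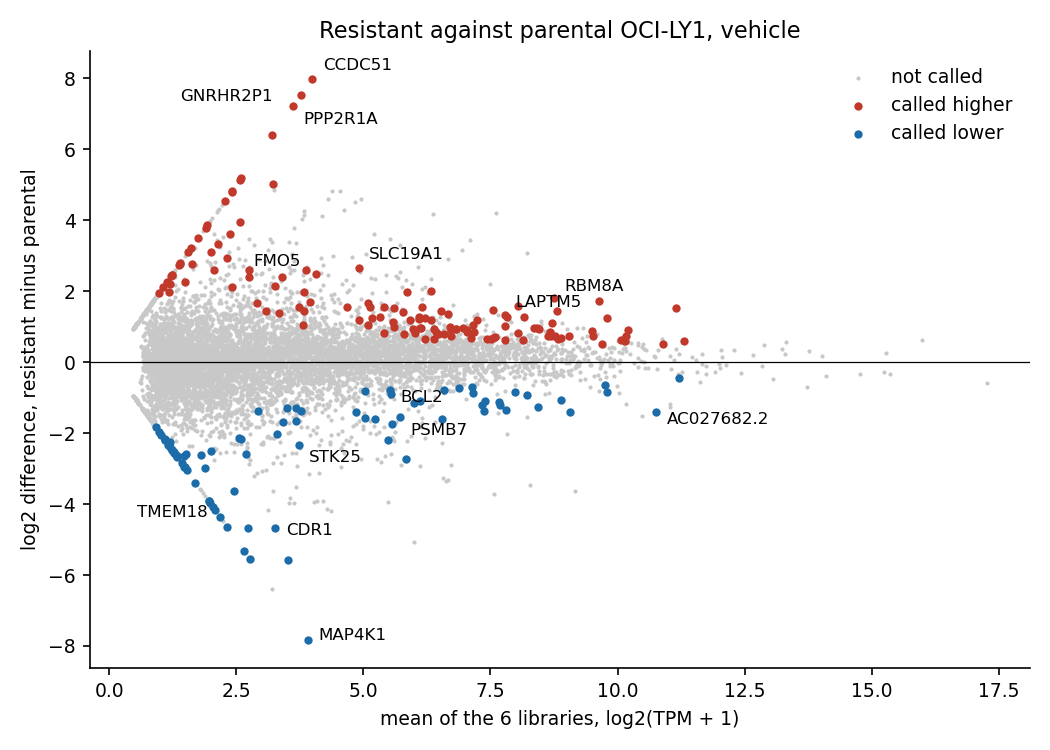
Each point is 1 of 7761 tested features, with the mean of the 6 vehicle libraries on the horizontal axis (log2(TPM + 1)) and resistant minus parental on the vertical axis (log2). The 134 called higher are red and the 83 called lower are blue; the points along the 2 slanting edges are features listed at 0 in 1 group.

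By annotated class, 92 of the 217 calls were protein-coding genes (57 higher, 35 lower) and 82 were antisense features (52 higher, 30 lower). The call rate was 5.01% of 1638 tested antisense features and 2.14% of 4298 tested coding genes. Antisense features held the larger share of TPM, and the rates were not compared at equal TPM. A further 9 calls were lincRNAs and 13 pseudogenes. None of the 26 features on the plus strand or the 9 on the minus strand of the mitochondrial genome was called.

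Among features above 0 in all 6 libraries, and leaving out those with only a clone name, the rises were led by a folate carrier, a monooxygenase and noncoding RNAs of chromosome 1. SLC19A1, the reduced folate carrier of the plasma membrane (chromosome 21, minus strand, 14.01% of its exons opposite COL18A1), was at 7.15, 10.5 and 17.1 TPM in parental 1 to 3 and at 73.0, 90.9 and 63.2 TPM in resistant a to c. The lowest resistant library was thus well above the highest parental one, and the log2 difference was 2.67 ± 0.33 (SE; limma adjusted p = 0.023). FMO5, a flavin-containing monooxygenase (chromosome 1, 147175351 to 147243050, minus strand), was at 7.33, 6.40 and 4.77 TPM in parental and 37.0, 41.5 and 36.6 TPM in resistant cells. Its log2 difference was 2.47 ± 0.21 (SE; limma adjusted p = 0.0069), and it stayed called without any 1 library. Next to it on the same strand, the noncoding LINC00624 rose from 4.95 ± 0.98 to 35.9 ± 9.85 TPM (SD, n = 3; limma adjusted p = 0.016). FAM163B, which has no gene opposite, rose from 1.77 ± 0.67 to 15.6 ± 0.67 TPM (SD, n = 3; limma adjusted p = 0.016). RHOC, a small GTPase of cell motility, also without an opposite gene, rose from 1.597 ± 0.44 to 10.3 ± 1.27 TPM (SD, n = 3; limma adjusted p = 0.023). LINC01138 (11.5% opposite AC245100.6) and GRIN3B, an NMDA receptor subunit, were also among the 8 largest rises, with log2 differences of 2.01 and 1.97.

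Other rises were smaller but tighter. LAPTM5, a lysosomal membrane protein of haematopoietic cells that lowers antigen receptor levels, has no gene opposite (chromosome 1, 30732469 to 30757820). It was at 141, 138 and 133 TPM in parental and 329, 368 and 346 TPM in resistant cells, a log2 difference of 1.33 ± 0.09 (SE; limma adjusted p = 0.0041). The noncoding AFAP1-AS1 (chromosome 4, 7754090 to 7778928) was at 17.8, 17.2 and 19.0 TPM in parental and 59.5, 62.1 and 57.1 TPM in resistant cells, a log2 difference of 1.67 ± 0.13 (SE; limma adjusted p = 0.0062). Both stayed called without any 1 library; LAPTM5 was picked for its values. The call of FAM163B was lost without parental 2 or resistant c, with an adjusted p of up to 0.068. LINC00624 lost it without parental 1, 2 or 3 or resistant c (up to 0.071), SLC19A1 and LINC01138 without any 1 library but parental 3 (up to 0.091 and 0.12), GRIN3B without any but resistant b (up to 0.091), and RHOC without any 1 of the 6 (up to 0.079).

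**Figure D2:**
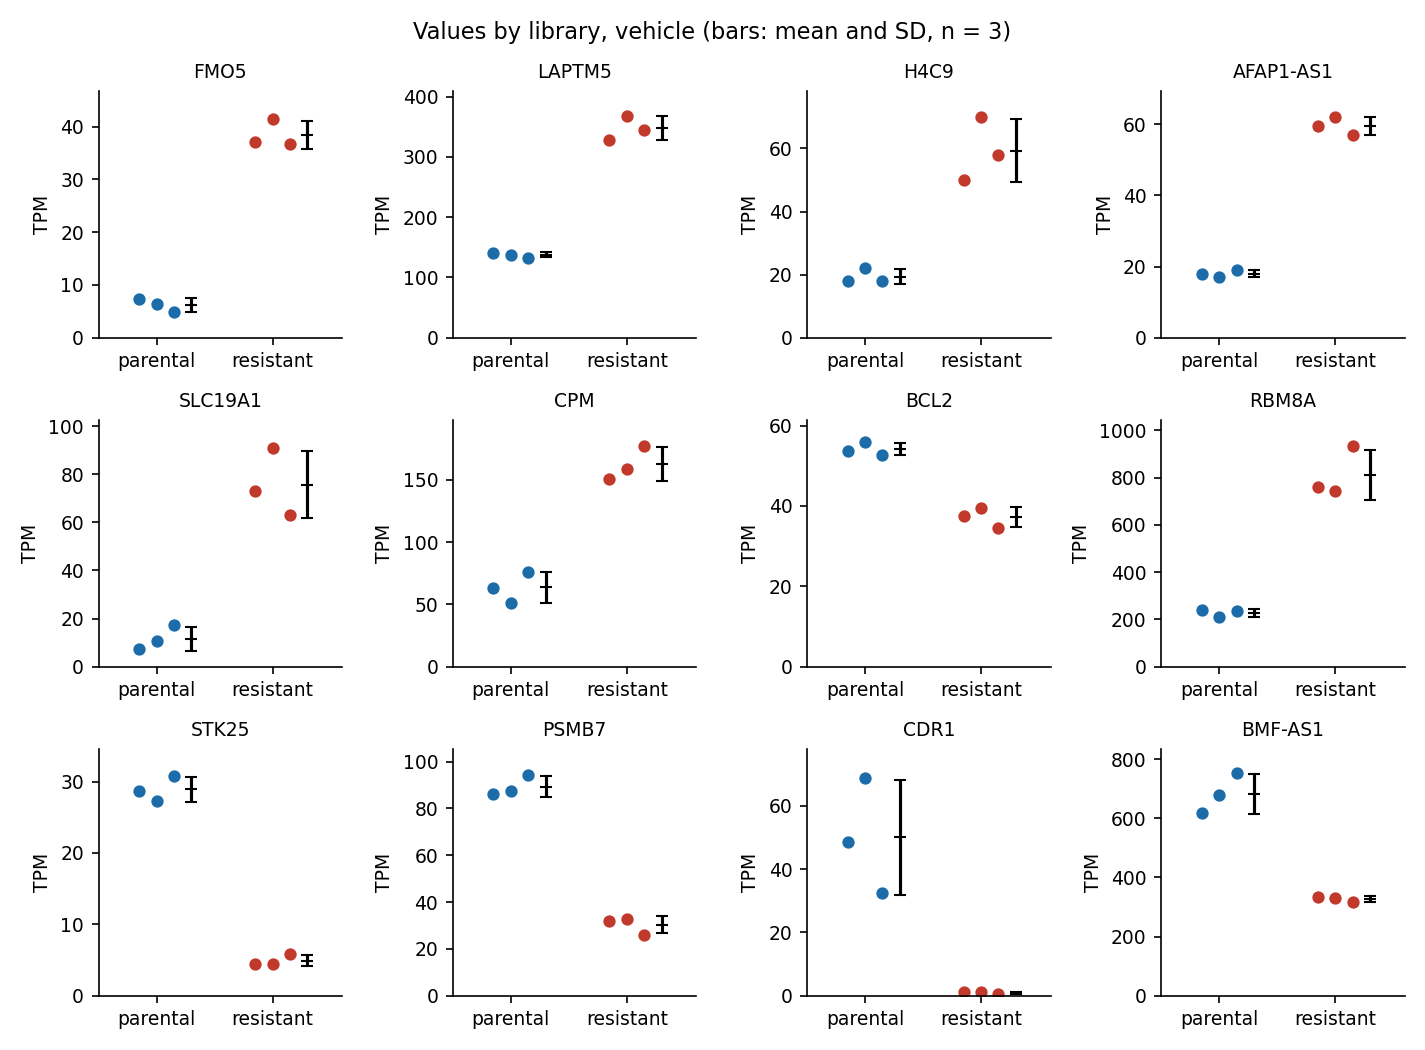
TPM in each vehicle library (points; vertical axes start at 0) with the mean and SD of 3 libraries per line, for 12 features. In all 12 panels the 3 resistant points lie clear of the 3 parental ones; BCL2 nevertheless missed the threshold after adjustment.

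Among the falls, chosen in the same way, the first was CDR1, a single-exon gene of the X chromosome (140783578 to 140784366, minus strand) that lies wholly opposite exons of LINC00632. It was at 48.5, 68.9 and 32.6 TPM in parental and 1.12, 1.17 and 0.482 TPM in resistant cells. Its log2 difference was -4.68 ± 0.35 (SE; limma adjusted p = 0.0048), while LINC00632 was listed at 0 in all 6 libraries. Larger fitted falls were of features listed at 0 in at least 1 resistant library, among them MAP4K1 and ATG3, given below, and ACAT1, a mitochondrial thiolase at 0 in resistant a and c. STK25, a STE20-family kinase (14.4% opposite FARP2), was at 28.6, 27.3 and 30.7 TPM in parental and 4.39, 4.48 and 5.84 TPM in resistant cells, a log2 difference of -2.35 ± 0.19 (SE; limma adjusted p = 0.0066). The calls of CDR1 and STK25 held without any 1 library. SCP2, a sterol carrier protein, fell from 8.53 ± 1.19 to 0.688 ± 0.23 TPM (SD, n = 3; limma adjusted p = 0.018). PINK1, the kinase that marks damaged mitochondria for removal (39.4% opposite PINK1-AS), was at 24.3, 20.5 and 20.6 TPM in parental and 7.33, 5.87 and 5.46 TPM in resistant cells (limma adjusted p = 0.022). PSMB7, a catalytic subunit of the proteasome with no gene opposite, was picked for its values: it fell from 89.3 ± 4.48 to 30.3 ± 3.60 TPM (SD, n = 3; limma adjusted p = 0.010). The rest of the 8 largest falls were SLC24A5, a cation exchanger of pigment cells (32.9% opposite MYEF2), TOMM40P4, which was not matched to the annotation, NAV2-AS2 (65.7% opposite NAV2) and A1BG-AS1 (29.6% opposite ZNF497), with log2 differences between -2.59 and -1.68. PSMB7 lost its call without parental 2 (adjusted p 0.052) and SCP2 without parental 1, 2 or 3 (up to 0.078). PINK1 and SLC24A5 lost it without any 1 library but resistant a (up to 0.091 and 0.15), A1BG-AS1 without any but resistant b (up to 0.16), and TOMM40P4 and NAV2-AS2 without any 1 of the 6 (up to 0.13 and 0.15).

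In 52 of the 217 calls 1 line was listed at 0 in all 3 libraries, 23 of them higher and 29 lower in resistant cells. For these no fold change is given. CCDC51, a mitochondrial inner membrane protein, was at 0 in every parental library and at 197, 465 and 177 TPM in resistant a to c. PPP2R1A, the scaffold subunit of protein phosphatase 2A, was at 0 in parental cells and at 122, 183 and 149 TPM in resistant cells. The reverse was seen for MAP4K1, a haematopoietic kinase that restrains antigen receptor signalling, at 214, 258 and 209 TPM in parental cells and at 0 in resistant a to c. The pseudogene GNRHR2P1 was at 0 in parental and 186 ± 12.7 TPM (SD, n = 3) in resistant cells; a near-identical copy elsewhere could share its reads, which was not tested. RINT1 of vesicle traffic (17.5% opposite EFCAB10), CHAF1A of the chromatin assembly factor CAF-1 and ITFG1 were likewise at 0 in parental cells, with means of 35.9, 34.4 and 27.6 TPM in resistant cells. TMEM18, NSMCE4A of the SMC5/6 complex, IFTAP (21.8% opposite RAG2), the kinase STK24 (63.2% opposite FARP1) and LINC02585 were at 0 in resistant cells, with means of 19.8, 16.9, 14.4, 11.4 and 5.69 TPM in parental cells. The adjusted p of the calls (limma) ran from 5.97e-05 for MAP4K1 and GNRHR2P1 to 0.048 for STK24. All but STK24 and LINC02585 stayed called without any 1 library; STK24 kept its call only without parental 2, and LINC02585 in none of these fits (adjusted p up to 0.14 and 0.12).

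Several of these features also went between 0 and a high value within a single group of the decitabine libraries. MAP4K1 was at 0 and 162 TPM in parental decitabine 1 and 2 and at 156, 153 and 0 TPM in the resistant decitabine libraries. CCDC51 was at 267 and 0 TPM in the same parental libraries and at 0, 179 and 304 TPM in the resistant ones. Of the 52 calls with 1 line at 0, 16 were listed at 0 in 1 library and at 10 TPM or more in another library of the same decitabine group. Only 27 of the 52 reached 10 TPM in any vehicle library. When all 4 groups were fitted together, without parental decitabine 3, the calls of CCDC51, PPP2R1A, ITFG1, MAP4K1 and NSMCE4A were lost (adjusted p 0.078 to 0.11), as was that of ATG3, described below (0.076). An exact 0 in these tables can also be a failed estimate, and this was not tested.

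At some loci the features of both strands were called, and at others only that of 1 strand. Of 121 called features whose opposite-strand gene was also tested, 93 (76.9%) had that gene on the same side, beside 58.9% of 3915 such tested features. In 7 of the 121 that gene was called as well, beside 2.80% of all tested features. RIPOR1, COCH and GALNT2 enter these 7 together with the feature opposite them, so those loci are counted from both strands. Of the loci given next, only RIPOR1 had a call on both strands. At RIPOR1 the gene fell from 358 ± 65.3 to 139 ± 6.92 TPM (SD, n = 3; limma adjusted p = 0.019). The feature AC027682.2, which lies wholly opposite its exons (chromosome 16, 67542123 to 67542963), fell from 2821 ± 187 to 1073 ± 71.9 TPM (SD, n = 3; limma adjusted p = 0.0036). At the locus of the ubiquitin ligase MDM2, AC025423.4 lies wholly opposite MDM2 exons (chromosome 12, 68841288 to 68843237). It was at 260, 237 and 319 TPM in parental and 700, 677 and 853 TPM in resistant cells, a log2 difference of 1.45 ± 0.16 (SE; limma adjusted p = 0.017). MDM2 itself was at 0, 3.79 and 5.71 against 12.4, 12.1 and 15.02 TPM, a difference that did not pass (adjusted p = 0.20). CPM, the neighbouring carboxypeptidase gene, rose from 63.6 ± 12.3 to 162 ± 13.6 TPM (SD, n = 3; limma adjusted p = 0.025). AC023510.1, 27.6% opposite IRAG2 (LRMP in the annotation), a membrane protein of germinal-centre B cells, rose from 581 ± 52.97 to 1363 ± 34.3 TPM (SD, n = 3; limma adjusted p = 0.0062), while IRAG2 was at 0 in all 6 libraries. PRAL, 77.1% opposite the apoptosis gene XAF1, was at 22.7, 20.3 and 20.03 TPM in parental and 7.96, 7.23 and 7.14 TPM in resistant cells (limma adjusted p = 0.023). TSPAN31, 25.4% opposite the cell cycle kinase CDK4, rose from 153 ± 19.3 to 462 ± 96.9 TPM (SD, n = 3; limma adjusted p = 0.022), whereas CDK4 was at 455, 536 and 547 TPM in parental and 31.4, 360 and 453 TPM in resistant cells (adjusted p = 0.46). These loci were chosen after their values were seen. The 2 features called at AC027682.2 and AC023510.1 stayed called without any 1 library. RIPOR1 lost its call without parental 2 or 3 or resistant b or c (adjusted p up to 0.069), AC025423.4 without parental 1 or 2 or resistant c (up to 0.070), CPM without any 1 library but parental 3 (up to 0.095), PRAL without any but resistant a (up to 0.096), and TSPAN31 without parental 1, 2 or 3 or resistant b (up to 0.091).

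Of the drug's target family, 3 of 6 anti-apoptotic and 7 of 11 pro-apoptotic genes passed the filter on low values, and none of these was called. The drug pump ABCB1 did not pass it. Coding genes were listed low in these libraries, ACTB among them, so a member at or near 0 cannot show whether the lines differ. BCL2, the target of venetoclax (chromosome 18, minus strand, no gene opposite), was at 53.8, 55.9 and 52.8 TPM in parental and 37.6, 39.4 and 34.5 TPM in resistant cells. The groups did not overlap, and the log2 difference was -0.53 ± 0.12 (SE; limma adjusted p = 0.091). The 13 tested features of chromosome 18 from 60 Mb to its end had a median log2 difference of -0.53, with none called. BCL2 is among them and is itself the middle value, so this median is no comparison of BCL2 with its neighbours. Of these 13, 23.1% were higher in resistant cells, against 56.5% of all features. Whether the fall of BCL2 is separate from that of its neighbours was not tested. BCL2L1 (42.97% opposite ABALON) was at 3.09, 2.07 and 32.5 TPM in parental and 29.3, 29.6 and 24.98 TPM in resistant cells, so parental 3 was above all resistant values (adjusted p = 0.31). MCL1, which lies on the long arm of chromosome 1, was at 0 in the 3 parental libraries and at 0.975, 1.70 and 0.277 TPM in resistant a to c, under the filter and so not tested. BCL2L2, the gene of BCL-W, had a log2 difference of 0.12 (adjusted p = 0.84), and BCL2A1 was at 0 in all 6 libraries.

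On the pro-apoptotic side, BMF, a BH3-only protein released from the cytoskeleton under stress, was at 17.998, 0 and 22.6 TPM in parental cells and at 0 in all 3 resistant libraries (adjusted p = 0.28). BMF-AS1, which lies wholly opposite BMF exons (chromosome 15, 40088832 to 40089386) and was picked for its values, was at 619, 678 and 753 TPM in parental and 335, 330 and 316 TPM in resistant cells. Its log2 difference was -1.05 ± 0.10 (SE; limma adjusted p = 0.012), and the call was lost without parental 2 or resistant c (adjusted p up to 0.058). The effectors BAX and BAK1 had log2 differences of 0.04 ± 0.68 and 0.14 ± 1.70 (SE), intervals too wide to place either line above the other. BCL2L11 (10.9% opposite MIR4435-2HG), PMAIP1 and BID, 3 further BH3-only genes, had log2 differences of -0.75, 0.40 and -0.53 with adjusted p of 0.35, 0.48 and 0.60 (limma), and BBC3 was above 0 in 1 library of each line only. ABCB1, the multidrug efflux pump, was listed at 0 in all 6 libraries.

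Members of known pathways were called about as often as coding genes in general. Of 246 tested genes in 35 lists, 5 were called, or 2.03%. The share was 2.14% for all tested coding genes and 2.80% for all features. The 5 were H4C9, a histone H4 gene, and CLPB, a mitochondrial disaggregase, among the rises, and ATG3 and PINK1 of autophagy and MAP4K1 of MAPK signalling among the falls. H4C9 was at 18.1, 22.1 and 17.9 TPM in parental and 50.05, 69.9 and 57.8 TPM in resistant cells (limma adjusted p = 0.022; up to 0.080 without parental 1, 2 or 3 or resistant c, where the call was lost). CLPB was at 0 in parental cells and at 9.83, 20.8 and 10.3 TPM in resistant cells (limma adjusted p = 0.012; lost without parental 1, 2 or 3, up to 0.055). ATG3, which conjugates LC3 to lipid, was at 31.7, 31.4 and 34.6 TPM in parental and 0, 0 and 1.20 TPM in resistant cells (limma adjusted p = 0.0066). Its log2 difference was -4.69 under vehicle and had the opposite sign, 3.52, in the decitabine libraries without parental replicate 3. The fall of ATG3 was thus not a constant difference between the lines. In the autophagy and mitophagy list 7 of 9 tested members were lower, with a median log2 difference of -0.43 beside 0.11 for all features. The 13 mitochondrially encoded transcripts had a median of 0.39 with none called, and 12 of 13 were higher, beside 56.5% of all features. The groups did not overlap in 3 of the 13, beside 28.1% of all features. MT-ND1, 1 of these 3, was at 148, 152 and 121 TPM in parental and 307, 173 and 298 TPM in resistant cells (limma adjusted p = 0.15). MT-CO1 was at 2226, 2284 and 1545 against 4136, 1034 and 4021 TPM (limma adjusted p = 0.76), with resistant b below every parental library. Resistant b was also the lowest library for MT-ND4, MT-ND5, MT-ND6, MT-CO3, MT-ATP6 and MT-CYB, and not for the rest of the 13. Among 19 tested genes of B-cell receptor signalling and germinal-centre identity the median was 0.26 and none was called; CD74, the MHC class II chaperone, was at 51.6, 42.5 and 47.2 against 69.2, 83.9 and 76.3 TPM (adjusted p = 0.073). The 6 tested integrated stress genes had a median of 0.62 with 5 higher, the 17 respiratory chain genes -0.01, the 27 cytosolic ribosomal protein genes -0.04 and the 13 cell cycle genes 0.00, with no call in any of them.

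The differences lay together along the long arm of chromosome 1. Chromosome 1 held 8.65% of the tested features and 39 of the 217 calls (17.97%). In 122 bins of 20 Mb with at least 20 tested features, the median log2 difference relative to all features lay between -0.09 and 0.10 for the middle 50% of bins. The highest bin was 140 to 160 Mb of chromosome 1, at 0.56 over 132 features with 20 called higher and 2 lower. The 2 lowest bins were 200 to 220 and 220 to 240 Mb of the same chromosome, at -0.70 over 24 and -0.45 over 56 features, with 0 called higher and 5 lower. The next bins at either end were 100 to 120 Mb of chromosome 6 (0.45, 29 features), 60 to 80 Mb of chromosome 13 (0.44, 20 features) and 100 to 120 Mb of chromosome 10 (-0.43, 50 features). In the decitabine libraries these 3 bins were at 0.20, 0.11 and -0.31, whereas 140 to 160, 200 to 220 and 220 to 240 Mb of chromosome 1 were at 0.60, -0.62 and -0.36.

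**Figure D3:**
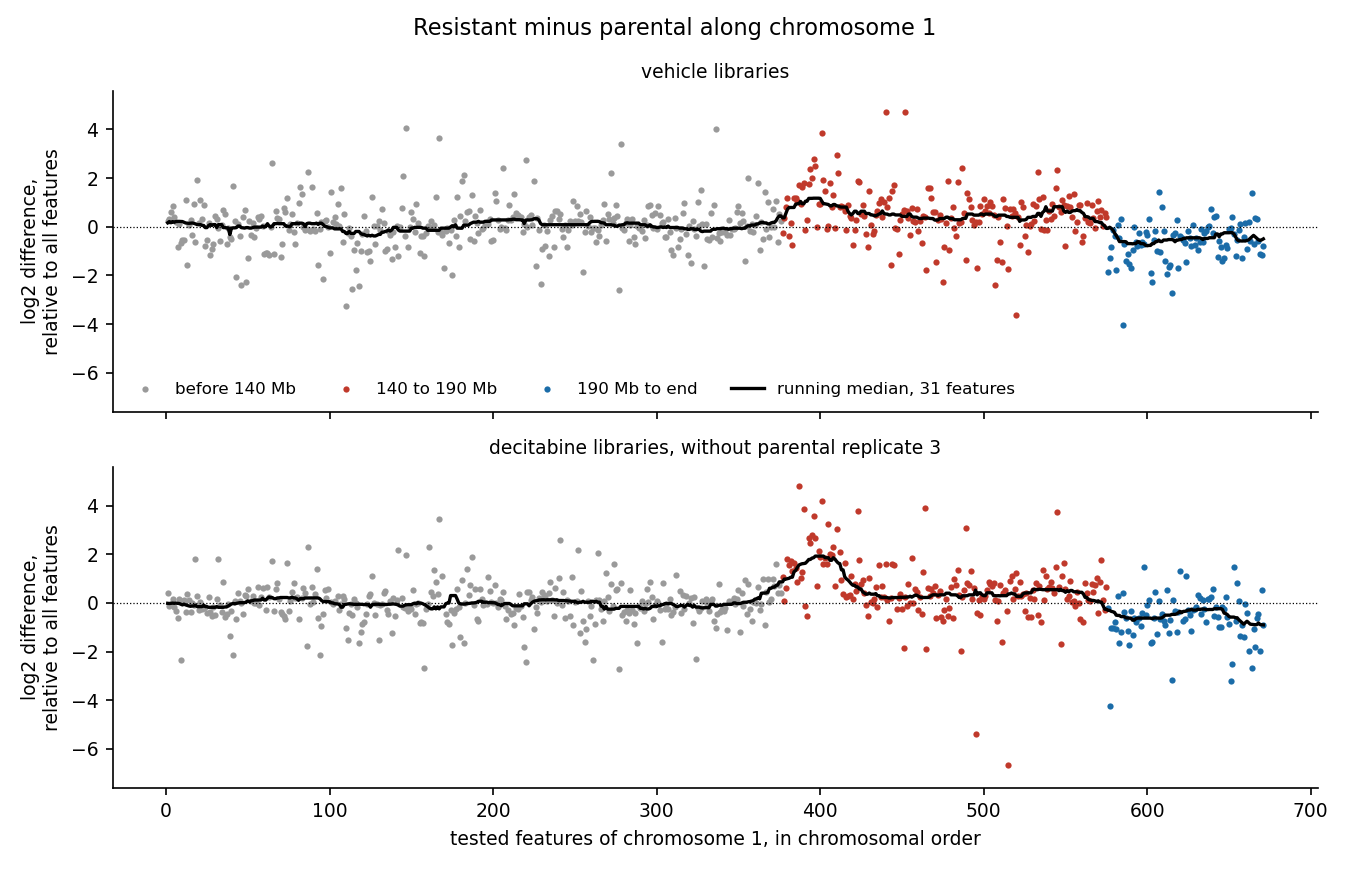
Each point is 1 of 671 tested features of chromosome 1 in chromosomal order, with resistant minus parental (log2, relative to the median of all features) on the vertical axis, for vehicle (top) and decitabine libraries (bottom). The black line, a running median of 31 features, lies near 0 on the short arm, above 0 from 140 to 190 Mb and below 0 from 190 Mb to the end, in both panels.

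Read as 2 stretches, a choice made after the profile was seen, 140 to 190 Mb had a relative median of 0.54 over 199 features, of which 79.9% were higher in resistant cells against 56.5% of all features. From 190 Mb to the end it was -0.58 over 96 features, of which 23.96% were higher. These 96 include RNA5S1 to RNA5S17, copies of the 5S ribosomal RNA gene that could share reads, which was not tested. The 376 features of the short arm were at 0.02. Against the parental vehicle mean, the first stretch was at 0.56, 0.58 and 0.53 in resistant a to c and between -0.02 and 0.03 in the parental libraries. The second was at -0.39, -0.64 and -0.64 in resistant a to c and between -0.01 and 0.06 in the parental ones. The groups were far apart in both stretches and overlapped on the short arm. The stretches were drawn on these same vehicle values and the parental mean is the baseline, so this gap is not separate support. The sign held on both strands: in the first stretch the relative median was 0.45 on the plus and 0.70 on the minus strand, in the second -0.76 and -0.37. It held for coding genes (0.52 and -0.68), for antisense features (0.42 over 38 and -0.50 over 18 features) and for features above 0 in all 6 libraries (0.53 and -0.57). These are subsets of the same features and libraries that the stretches were drawn on. In the decitabine libraries, none of which is in the vehicle comparison, the stretches were at 0.54 and -0.59.

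**Figure D4:**
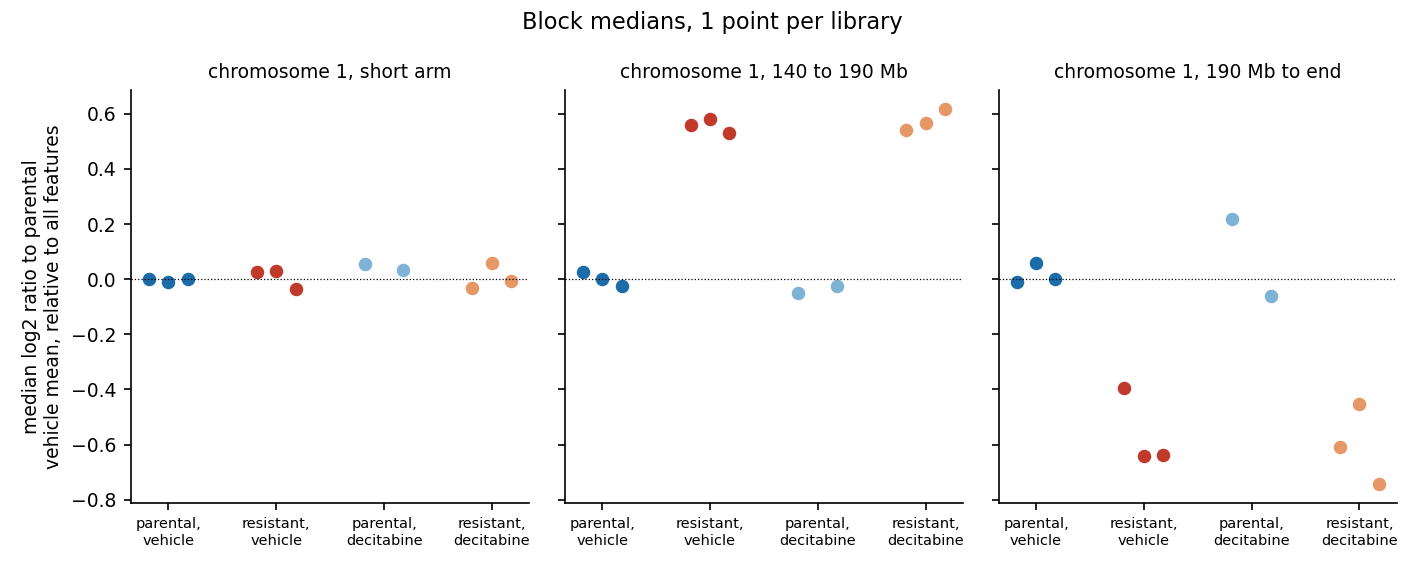
Median log2 ratio of each library to the parental vehicle mean, relative to all features, for the short arm and 2 stretches of the long arm of chromosome 1 (1 point per library; parental decitabine 3 left out). All 6 resistant libraries lie above 0.5 in the middle panel and below -0.3 in the right panel, and every parental library lies between -0.1 and 0.3.

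In the first stretch 24 features were called higher (12.1% of 199, beside 1.73% of all features) and 2 lower; in the second 0 were called higher and 5 lower (5.21% of 96, beside 1.07%). RBM8A, a core protein of the exon junction complex (145917714 to 145927678; 15.4% opposite GNRHR2), was at 242, 210 and 234 TPM in parental and 758, 743 and 933 TPM in resistant cells. Its log2 difference of 1.82 ± 0.13 (SE; limma adjusted p = 0.0041) held without any 1 library. In the fit of all 4 groups its adjusted p was 0.61, with parental decitabine 2 listed at 0. LIX1L-AS1, 16.7% opposite RBM8A, rose from 447 ± 111 to 1465 ± 169 TPM (SD, n = 3; limma adjusted p = 0.022). NUDT17, a nudix hydrolase gene 26.1% opposite PIAS3, was at 45.3, 44.4 and 39.9 TPM in parental and 106, 92.9 and 119 TPM in resistant cells (limma adjusted p = 0.019), and PIAS3 itself, a SUMO ligase, differed by 1.16 in log2 (adjusted p = 0.059). CERS2, the ceramide synthase for very long chains (150960583 to 150975004; 20.4% opposite SETDB1), rose from 156 ± 27.0 to 312 ± 19.6 TPM (SD, n = 3; limma adjusted p = 0.035). Beside MCL1, ADAMTSL4 of the extracellular matrix (11.4% opposite ADAMTSL4-AS1) rose from 0.142 ± 0.13 to 3.46 ± 0.51 TPM (SD, n = 3; limma adjusted p = 0.040). PBXIP1, C1orf56, CENPL of the kinetochore, MSTO2P, PRCC, NR1I3, RUSC1-AS1, OAZ3 and DCAF6 were also called, with log2 differences from 1.69 for PBXIP1 to 0.75 for DCAF6. Of these, C1orf56 lies 23.7% opposite CDC42SE1, MSTO2P 12.6% opposite GON4L, NR1I3 20% opposite TOMM40L and RUSC1-AS1 19.7% opposite FDPS. Beyond 190 Mb, JMJD4 (53.8% opposite SNAP47) was at 48.6, 66.2 and 80.0 TPM in parental and 22.0, 18.01 and 21.6 TPM in resistant cells (limma adjusted p = 0.030). GALNT2, which starts mucin-type glycosylation (13.3% opposite AL136988.1), fell from 16.7 ± 0.79 to 6.32 ± 0.91 TPM (SD, n = 3; limma adjusted p = 0.035), and PROX1-AS1 from 3.59 ± 0.82 to 0.010 ± 0.018 TPM (SD, n = 3; limma adjusted p = 0.034). Of the calls named here, only that of RBM8A held without any 1 library. The 24 became 5, 5 and 9 without parental 1, 2 and 3 and 14, 10 and 6 without resistant a, b and c, and the 5 became 1, 0, 0, 2, 1 and 1; the relative medians of the stretches stayed between 0.54 and 0.60 and between -0.68 and -0.49 in these fits. Under quantile scaling DCAF6, OAZ3, PRCC and NR1I3 kept their direction and lost the call (adjusted p 0.073, 0.075, 0.066 and 0.061). DNA copy number was not analysed here.

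Whether the differences recur in cells that shared no library with this comparison was read from the decitabine libraries, 2 parental (replicate 3 left out) and 3 resistant. Of 214 called features above 0 there, 171 (79.9%) had the same direction, beside 60.1% of all 7605 tested features. The share was 81.8% for the 148 calls above 0 in all 6 vehicle libraries and 71.4% for the 49 with 1 vehicle group at 0. The median log2 difference of the called rises was 1.31 under vehicle and 0.63 under decitabine, and of the called falls -2.17 and -0.67; the vehicle values are those the calls were chosen on. In the decitabine comparison 75 of 9029 features were called (0.831%). Of these, 20 were also called under vehicle, 26.7% of the decitabine calls and 9.62% of the 208 vehicle calls tested there, and all 20 had the same direction. They included CDR1, STK25 and PRAL among the falls and SLC19A1, FAM163B, FMO5, H4C9, AFAP1-AS1, CPM, AC025423.4, ADAMTSL4, NUDT17 and LIX1L-AS1 among the rises. CDR1 was at 62.0 and 59.0 TPM in parental decitabine 1 and 2 and at 0, 1.17 and 0 TPM in the resistant decitabine libraries, and SLC19A1 at 71.9 and 59.6 against 286, 312 and 281 TPM. BMF was at 19.3 and 23.6 TPM in those parental libraries and at 0 in the 3 resistant ones, where it was called (limma adjusted p = 0.020). MCL1 was at 0 and 0.395 against 1.99, 2.54 and 3.10 TPM (adjusted p = 0.25). BCL2 showed little of its vehicle difference there, at 74.96 and 88.6 against 75.8, 78.6 and 72.1 TPM. The features of chromosome 18 from 60 Mb to its end had a median relative to all features of -0.62 there and -0.64 under vehicle. By library, however, their medians overlapped there: 0.35 and 0.37 in parental against 0.41, -0.11 and -0.16 in resistant cells. Whether BCL2 parts from these features under decitabine was not tested.

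**Figure D5:**
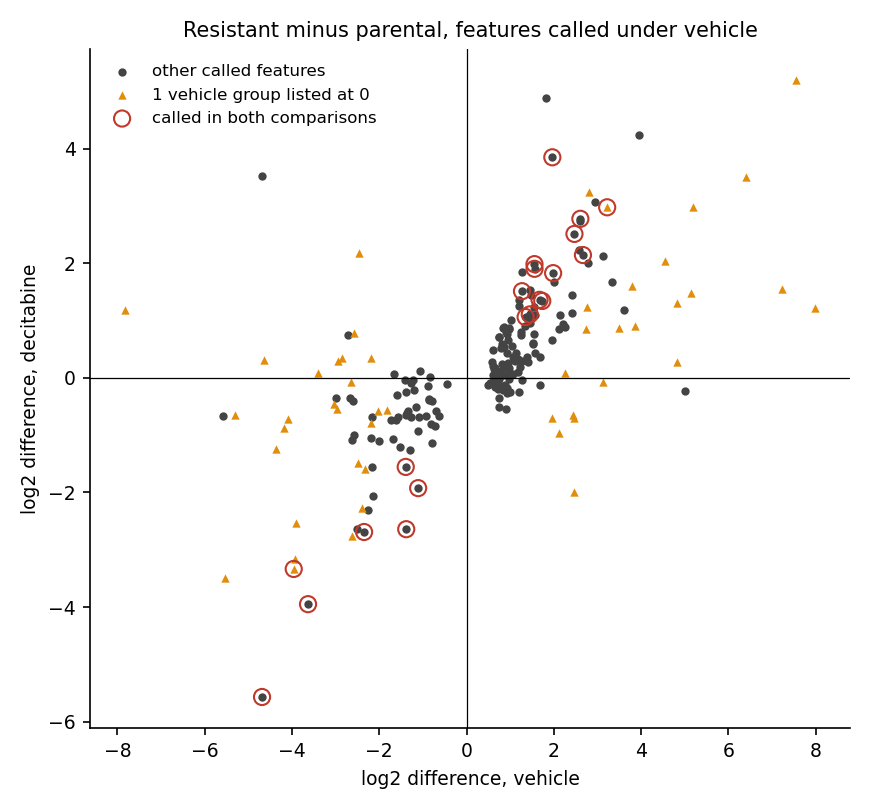
Resistant minus parental (log2) under vehicle on the horizontal axis and under decitabine, in 5 other libraries, on the vertical axis, for the 214 features called under vehicle and above 0 in both. The 171 in the lower left and upper right quadrants have the same direction, the 20 ringed were called in both comparisons, and triangles mark features with 1 vehicle group listed at 0.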

How the data were processed

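RNA was measured by stranded mRNA libraries, per the labels' protocols. HISAT2, StringTie, DESeq2 and the build hg38 are named, without versions or roles, in the submitters' processing notes. The authors deposited 1 table of TPM per cell line, with 60656 features each; every column sums to 1000000, and library depth is unknown. The tables were joined by gene name. The 1166 features with repeated names were left out, leaving 59490. Positions, classes and opposite-strand exons came from GENCODE 29 (GRCh38), matched by name for 54865 features and by Ensembl ID for 1097 more.

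Differences were fitted with limma 3.58.1 (trend; R 4.3.3) to log2(TPM + 1) values of features averaging 1 TPM or more, 2-sided, with Benjamini-Hochberg adjustment and a threshold of 0.05; a fold change on this scale understates the change of low features. In simulated data of 7761 features for this comparison, with 50 changed at each size, the fit recovered 24%, 60%, 86% and 88% of log2 changes of 1, 2, 3 and 4, and 13 of its 142 calls were false. The changed features were drawn from those with a mean log2(TPM + 1) above 3, and the simulated noise was normal. These rates therefore do not cover changes of lower features or of those listed at 0 in 1 group. The decitabine comparison left out parental replicate 3. Named features are, among calls whose groups do not overlap and without clone names, the 8 largest rises and falls above 0 in all 6 libraries, the 6 highest in each direction with 1 group at 0, the 4 of smallest adjusted p in each direction, called list members and fixed apoptosis genes; others are said to be picked for their values, and calls on the long arm of chromosome 1 or in both comparisons were added after the data were seen. A few items that these rules cover are not reported here. Members and lists were chosen with earlier results of these data known. Alternatives covered scaling, filters, the pseudocount, thresholds, a fit of all 4 groups and leaving out each library.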

Additional observations from a re-analysis of the deposited data

Results flagged for a closer look

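For 4 of the named features the difference between the lines itself differed between decitabine and vehicle, by an interaction term over the 4 groups without parental decitabine 3 (limma), a test added after the data were seen; of all 8505 features tested this way 31 passed, 15 of them among 214 vehicle calls. The calls were chosen for their vehicle difference, so their larger share is not a result about them. The interaction was 1.73 in log2 for PINK1 (adjusted p = 0.0495), which was at 26.0 and 30.7 against 35.2, 26.2 and 27.9 TPM under decitabine. For BMF-AS1 it was 1.17 (adjusted p = 0.035), with 617 and 746 against 794, 740 and 680 TPM under decitabine. For RUSC1-AS1 it was -1.45 (adjusted p = 0.0495), with 781 and 1232 against 640, 656 and 725 TPM. For AC023510.1 it was -1.04 (adjusted p = 0.034), with 679 and 575 against 691, 738 and 721 TPM. Under decitabine the lines overlapped for PINK1 and BMF-AS1. AC023510.1 kept a smaller rise there (log2 difference 0.20), and RUSC1-AS1 was lower in resistant cells (-0.54), without overlap in either.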

How the results depend on the processing

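No paired analysis was possible because the resistant columns carry a group and no replicate number. Of 59 named called features, all kept their direction in each of the 805 alternative values computed for them. The 134 rises became 86 with quantile scaling, 85 with median-ratio scaling, 39 without the filter, 290 in a fit of all 4 groups, 18 at an adjusted p under 0.01 and 85 with a 2-fold limit, and 36 to 107 without 1 library. The 83 falls became 29 without the filter, 133 with all 4 groups and 19 at an adjusted p under 0.01, and 22 to 84 without 1 library. Of these calls, 165 were shared with the reported 217 under quantile scaling, 68 without the filter and 39 to 108 without 1 library. The smaller fits have fewer samples; the cause of the other shifts was not tested. The 5 called list members became 9 with all 4 groups and 2 at an adjusted p under 0.01, and 2 to 8 without 1 library. The count with the same direction under decitabine was 171, and 163 with parental decitabine 3. The relative medians of the 6 bins named in the text kept their sign in the 5 settings run for them. They became -0.52 (mean of at least 5 TPM) and -0.61 (above 0 in every library) for chromosome 1, 200 to 220 Mb, 0.63 (mean of at least 5 TPM) for 140 to 160 Mb, and 0.38 under both filters for chromosome 13, 60 to 80 Mb. For chromosome 6, 100 to 120 Mb, they were 0.42 (quantile scaling), 0.44 (median-ratio scaling), 0.47 (without mitochondrial features), 0.40 (mean of at least 5 TPM) and 0.41 (above 0 in every library). The stretches of chromosome 1 were chosen after seeing the data. With no depth in the tables, what depth limits cannot be stated.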
